A study of Mus musculus with 24 samples.

Results

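Complement is a set of plasma and tissue proteins that tag cells and debris and recruit leukocytes. 9 of its genes, C1qa, C1qb, C1qc, C1ra, C1s1, C4b, C3, Cfb and Serping1, were examined among the 55401 genes counted in mouse gastrocnemius, a mixed-fibre muscle of the calf. They were selected by gene symbol, matched through the Ensembl identifier. Of these 9 genes, 8 had enough reads to be tested, and Cfb did not. The trunk was scalded over 25% of the body surface in male C57BL6 mice and the muscle was taken 24 h later. The young mice were 4 weeks old on arrival and 5 weeks at burn, and the adult mice were 10 weeks on arrival and 11 weeks at burn. The 4 groups crossed age with treatment (sham or burn), with 3 mice and 3 poly-A RNA libraries in each. All 12 mice had isoflurane and buprenorphine. The burned mice were given saline and lactated Ringer's solution, and the sham mice were not resuscitated, so the scald and the resuscitation cannot be told apart.

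In the classical pathway, the C1q recognition molecule is built from 3 kinds of chain, encoded by C1qa, C1qb and C1qc, and carries the proteases C1r and C1s. The proteases cut C4 and C2, which together form an enzyme that cuts the central component C3. Factor B, the product of Cfb, drives the alternative pathway, and the C1 inhibitor, encoded by Serping1, blocks C1r and C1s. The liver makes most of the circulating components, while tissue macrophages are a main source of C1q and stromal cells also express C1r, C1s, C3 and Serping1.

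Total counts ranged from 4392605 to 5688512 per library. Muscle fibre markers were abundant in every library, with 10 listed genes summing to at least 108962 CPM (reads per 1000000 counted, with the library total scaled by edgeR's TMM factor). Of 6 hepatocyte markers, 3 (Apoa1, Serpina1a and Fgb) had no count in any library, and the sum of all 6 did not exceed 1.17 CPM. Young burn replicate 2 stood apart, with a root mean square log2 CPM difference from its group of 0.667 against 0.324 to 0.454 in the other libraries. Tests that involve young burn muscle are therefore given with all 12 libraries and with the 11 that remain without it. Fold changes between the adult groups hold no young library and come from the fit of 12 libraries where 11 are not named. In whole muscle, fewer cells of a type and less RNA per cell cannot be told apart.

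The C1q chain genes were higher in young than in adult burned muscle, and C3 was lower in young than in adult muscle with or without burn. For that reason the 250 bases before the RefSeq start of C1qb and of C3 are shown, 5′ to 3′ on the coding strand, which is the minus strand for both genes (GRCm38.p6). The C1qb window is chr4:136886201-136886450 and the C3 window is chr17:57228137-57228386. Capitals mark matches to 6 letter patterns searched on both strands.

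C1qb: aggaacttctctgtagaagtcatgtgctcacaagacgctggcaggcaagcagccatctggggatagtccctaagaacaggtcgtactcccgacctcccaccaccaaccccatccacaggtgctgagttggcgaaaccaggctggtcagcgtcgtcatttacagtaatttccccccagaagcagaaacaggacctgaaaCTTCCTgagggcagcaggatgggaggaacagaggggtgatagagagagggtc

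C3: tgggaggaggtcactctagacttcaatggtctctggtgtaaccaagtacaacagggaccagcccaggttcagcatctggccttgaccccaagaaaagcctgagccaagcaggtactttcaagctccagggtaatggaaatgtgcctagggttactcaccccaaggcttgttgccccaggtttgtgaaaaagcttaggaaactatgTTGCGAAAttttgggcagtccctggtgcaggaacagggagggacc

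The capitals in C1qb are the reverse complement of AGGAAG, the core of many ETS factor sites, and begin 52 bases before the start. This pattern was found in 29.5% of 32851 promoter windows of the same kind in the RefSeq table. The capitals in C3 match TTGCGNAA, close to a C/EBP site, begin 45 bases before the start, and match in 0.670% of the windows. Both patterns were chosen after these sequences had been read. The other patterns were TTCNNNGAA for STAT factors, GAAA and again GAAA with 2 bases between for IRF factors, GGG and TTTCC with 2 bases between for NF-kB, and TTNNGCAAT for C/EBP, and none matched in either window. A match of letters is a description and not a bound site. Of the 9 genes, 5 had an entry in the promoter table, and C1qa, C4b, Cfb and Serping1 had none.

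The 3 C1q genes lie side by side on chromosome 4, C1qb at 136880129 to 136886187, C1qc at 136889804 to 136893065 and C1qa at 136895917 to 136898803, all on the minus strand (GRCm38). After burn their RNA was about 2 times the sham level in young muscle and 1.3 to 1.4 times in adult muscle, and the young burn libraries all lay above the adult burn libraries. C1qa, the A chain, measured 50.9, 45.2 and 40.7 CPM in young sham and 85.1, 77.1 and 128 CPM in young burn. The adult sham libraries held 44.3, 50.8 and 42.6 CPM of C1qa, and the adult burn libraries 71.4, 54.0 and 48.8 CPM. Thus the young groups were separated, while 1 adult burn library fell within the adult sham range. C1qb, the B chain, measured 45.8, 31.2 and 32.9 CPM in young sham and 59.3, 63.4 and 96.9 CPM in young burn. In adults C1qb was 30.2, 38.1 and 27.4 CPM in sham and 52.5, 43.9 and 39.7 CPM after burn. For C1qb the burn and sham libraries did not overlap at either age. C1qc, the C chain, measured 56.0, 46.2 and 37.3 CPM in young sham and 70.2, 82.0 and 124 CPM in young burn. The adult values of C1qc were 39.3, 48.0 and 39.5 CPM in sham and 58.9, 48.6 and 55.7 CPM after burn. The ranges of C1qc did not overlap at either age, although the adult groups came within 1 CPM of each other.

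**Figure D1:**
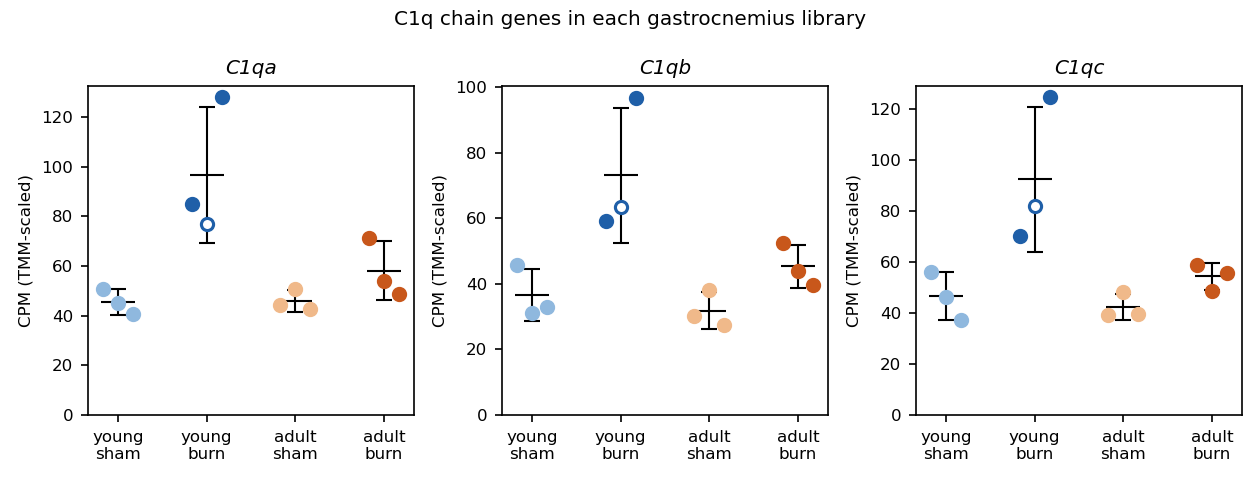
CPM (TMM-scaled) of C1qa, C1qb and C1qc on the vertical axes for the 3 libraries of each group, with bars for the mean ± SD and an open point for young burn replicate 2. The young burn libraries lie above the young sham and adult burn libraries in all 3 panels.

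With all 12 libraries, young burn against young sham gave log2 fold changes of 1.08 ± 0.19 (SE) for C1qa, 1.00 ± 0.21 for C1qb and 0.99 ± 0.20 for C1qc. None passed the threshold of 0.05 by edgeR's quasi-likelihood test, since the adjusted p-values were 0.057, 0.065 and 0.062. Without young burn replicate 2, C1qa rose 2.35-fold (log2 1.24 ± 0.18, adjusted p = 0.0090), C1qb 2.15-fold (adjusted p = 0.039) and C1qc 2.11-fold (adjusted p = 0.039, edgeR, n = 2 against 3). These were the only members called in young burn against young sham, 0 of 8 with 12 libraries and 3 of 8 with 11. Of all genes tested, 0.0564% and 0.458% were called higher in these fits. At an unadjusted p under 0.05, 6 of the 8 members passed in either fit, against 20.3% and 16% of all genes, and DESeq2 called 4 members with 12 libraries and 3 with 11, where it called 4.53% and 2.12% of all genes. The C1q genes were also called when young burn replicate 1 was left out in place of replicate 2, with adjusted p-values of 0.022 or less (edgeR), but 5.52% of all genes were called in that fit. They were not called when any other single library was left out.

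In adult burn against adult sham, the log2 fold changes were 0.34 ± 0.19 for C1qa, 0.51 ± 0.21 for C1qb and 0.37 ± 0.20 for C1qc (adjusted p from 0.70 to 0.76, edgeR). No member was called in adults in either fit, where 0.00806% of all genes were called with 12 libraries and 0.909% with 11. At an unadjusted p under 0.05 there were 2 members with 12 libraries, C1qb and C4b, and 3 with 11, when C3 was added, against 6.87% and 13.7% of all genes. DESeq2 called 0 members in both sets of libraries, and 0.0245% and 2.33% of all genes.

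The fold after burn was larger in young than in adult muscle, and this difference was itself tested as a burn by age interaction. For C1qa the interaction was 0.74 ± 0.27 on the log2 scale with 12 libraries (adjusted p = 0.68) and 0.89 ± 0.25 with 11 (adjusted p = 0.25). For C1qc it was 0.62 ± 0.29 and 0.71 ± 0.28, and for C1qb 0.49 ± 0.30 and 0.59 ± 0.29. No member passed in either fit by edgeR or DESeq2, while C1qa and C1qc had unadjusted p-values under 0.05, as did 7.2% of all genes with 12 libraries and 11.1% with 11. At the adjusted threshold 0% and 0.0949% of all genes were called by edgeR, and 0.00351% and 0.73% by DESeq2.

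A direct comparison of the burn groups did separate C1q. C1qa was 1.66-fold, C1qb 1.61-fold and C1qc 1.69-fold higher in young burn than in adult burn (adjusted p = 0.028, 0.047 and 0.029, edgeR, 12 libraries). Without young burn replicate 2 the folds were 1.84, 1.72 and 1.79, with adjusted p-values of 0.0037, 0.014 and 0.0095. In the sham groups the same 3 genes had log2 differences between -0.01 and 0.20 with SEs near 0.2, and none was called. The share of all genes called higher between the burn groups was 5.98% with 12 libraries and 11.2% with 11. The 3 calls between the burn groups were lost when young burn replicate 3, adult burn replicate 2 or adult burn replicate 3 was left out, or when the fit used the burn groups alone. Over 20 alternative fits C1qa was called in 16, C1qc in 15 and C1qb in 10.

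The 3 chains kept the same order of share in every library. As a share of their summed CPM per kilobase of exon, C1qa contributed 40.8% to 47.4%, C1qb 29.0% to 35.1% and C1qc 20.7% to 25.7% across the 12 libraries. The count of C1qb relative to C1qa was 0.76 ± 0.07 (SD, n = 12), and that of C1qc relative to C1qa was 0.96 ± 0.10 (SD, n = 12). The ranges of both count ratios overlapped between all 4 groups. The share of C1qb did not overlap between adult sham, at 29.0% to 32.2%, and adult burn, at 32.5% to 34.4%.

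Macrophage markers moved with the C1q genes. Summed over 12 listed markers, the level was 239 to 319 CPM in young sham and 376 to 658 CPM in young burn, and it was 235 to 294 CPM in adult sham and 288 to 391 CPM in adult burn. Summed C1q was 111 to 153 CPM in young sham, 215 to 349 CPM in young burn, 109 to 137 CPM in adult sham and 144 to 183 CPM in adult burn. Between adult burn and adult sham the marker sums overlapped, while the C1q sums did not. The ratio of the C1q sum to the macrophage sum was 0.48 ± 0.02 in young sham, 0.51 ± 0.07 in young burn, 0.46 ± 0.02 in adult sham and 0.48 ± 0.02 in adult burn (SD, n = 3 each). These ratios overlapped between the groups. All 12 markers had counts, and 11 were tested. In young burn against young sham all 11 had positive fold changes, with a median log2 of 0.93 with 12 libraries, where none was called, and of 1.06 without young burn replicate 2. In the latter fit 1 of them, Lyz2, was called (log2 1.06, adjusted p = 0.044, edgeR), where 0.458% of all genes were called higher. In young burn against adult burn 4 of the 11 were called higher in both fits, Adgre1, Mrc1, Mertk and Lyz2. In that comparison 5.98% of all genes were called higher with 12 libraries and 11.2% with 11. The muscle fibre markers moved the other way in young muscle. Their sum was 161461 to 224740 CPM in young sham and 108962 to 143852 CPM in young burn, or 135912 to 143852 CPM without young burn replicate 2, so that the young groups did not overlap. In adults it was 134524 to 148709 CPM in sham and 135180 to 159848 CPM in burn, which overlapped. None of the 10 fibre markers was called after burn at either age. The part of the macrophage and fibre markers in the differences of C1q, and of C1ra and C4b in young muscle, was not tested. Monocyte markers overlapped between burn and sham, at 28.7 to 42.9 CPM in young burn and 32.1 to 41.1 CPM in young sham.

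**Figure D2:**
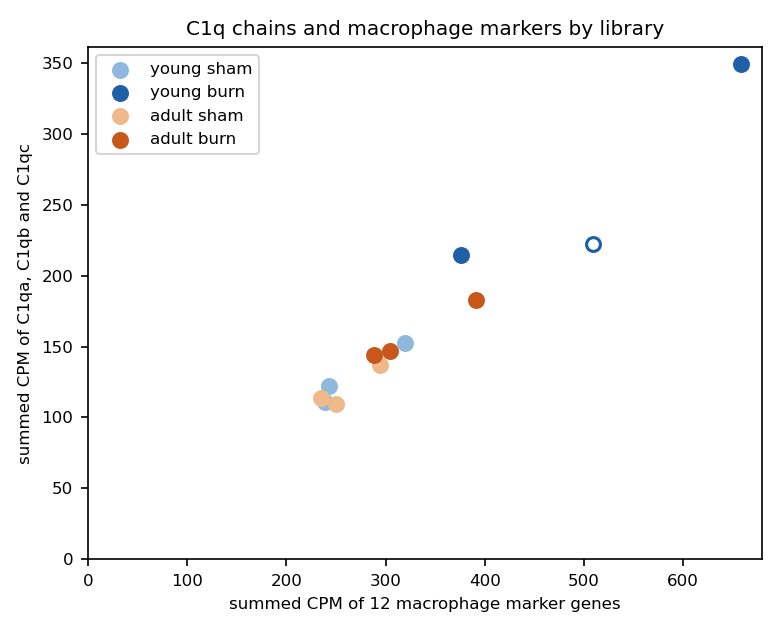
Summed CPM of C1qa, C1qb and C1qc (vertical) against the summed CPM of 12 macrophage markers (horizontal), 1 point per library, coloured by group, with young burn replicate 2 open. The 3 young burn libraries have the highest C1q sums, and the highest of both sums, 658 and 349 CPM, come from young burn replicate 3.

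Among all other genes tested, the 5 with profiles most like the mean C1q profile over the 12 libraries were Lyz2, Mrc1, Stab1, Hcls1 and Fcgr3. Their root mean square differences from it were 0.126 to 0.171 on the centred log2 CPM scale, against an SD of the C1q profile of 0.500. Lyz2 encodes lysozyme, Mrc1 the mannose receptor, Stab1 a scavenger receptor and Fcgr3 a receptor for antibody, and Lyz2 and Mrc1 are also on the marker list.

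C1ra and C1s1 encode the proteases that C1q carries. They lie on chromosome 6, C1ra at 124512405 to 124523443 on the plus strand and C1s1 at 124530345 to 124542359 on the minus strand. C1ra measured 36.0, 32.2 and 26.8 CPM in young sham and 38.5, 38.5 and 47.2 CPM in young burn. In adults C1ra was 29.6, 30.8 and 28.4 CPM in sham and 34.4, 30.4 and 29.3 CPM after burn. The young groups did not overlap for C1ra and the adult groups did, yet neither burn comparison was called, with log2 fold changes of 0.38 ± 0.14 in young (0.44 ± 0.14 with 11 libraries) and 0.08 ± 0.14 in adult muscle. C1s1 measured 74.8, 70.9 and 70.0 CPM in young sham and 72.9, 62.3 and 82.8 CPM in young burn. The adult values of C1s1 were 60.6, 56.0 and 63.4 CPM in sham and 66.7, 50.2 and 42.7 CPM after burn. C1s1 overlapped between burn and sham at both ages, with log2 fold changes of 0.01 ± 0.16 in young (0.13 ± 0.15 with 11 libraries) and -0.17 ± 0.16 in adult muscle.

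Between the burn groups both proteases were higher in young muscle once young burn replicate 2 was left out. C1ra was 1.37-fold higher (adjusted p = 0.031) and C1s1 1.46-fold higher (adjusted p = 0.019, edgeR). With all 12 libraries the adjusted p-values were 0.074 and 0.082. Young burn against adult burn thus had 3 of 8 members called higher with 12 libraries and 5 with 11, where 5.98% and 11.2% of all genes were called higher. In each fit 1 member was called lower, C3, where 4.84% and 9.54% of all genes were called lower. Fibroblast markers also differed with age, summing to 7453 to 9969 CPM in young burn (at least 7911 CPM without replicate 2) and 3382 to 4517 CPM in adult burn. They differed in sham muscle too, at 8711 to 9639 CPM in young and 3371 to 4729 CPM in adult, where neither protease was called. The part of these markers in the protease differences was not tested. The count of C1s1 per count of C1ra was 2.29 ± 0.28 in young sham and 1.75 ± 0.14 in young burn, and it was 2.03 ± 0.21 in adult sham and 1.68 ± 0.24 in adult burn (SD, n = 3 each). The young groups did not overlap in this ratio and the adult groups did.

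Both genes have a close relative on the same chromosome. Of the 75-base stretches in C1ra transcripts, 40.1% also occur in C1rb, and 13.0% of those in C1s1 occur in C1s2. A read pair that lies wholly within such stretches cannot be placed on 1 gene. C1rb had no count in any library and C1s2 had 10 over all 12. A further 18.4% of the exon bases of C1s1 lie in the overlapping gene Gm16567 on the annotation. The levels of C1ra and C1s1, and their calls, are therefore uncertain.

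C4b encodes complement C4, the protein cut by C1s, and lies on chromosome 17 at 34728380 to 34743882 on the minus strand. It had the largest fold change after burn of the 8 tested members at both ages. C4b measured 12.7, 9.11 and 3.66 CPM in young sham and 17.02, 21.7 and 31.3 CPM in young burn. In adults it was 8.89, 21.5 and 6.36 CPM in sham and 35.2, 31.3 and 28.8 CPM after burn. Burn and sham did not overlap at either age, but the sham libraries varied widely, from 3.66 to 21.5 CPM. The log2 fold change was 1.45 ± 0.42 in young muscle (adjusted p = 0.11) and 1.38 ± 0.39 in adult muscle (adjusted p = 0.56, edgeR, 12 libraries), neither of them called. Leaving out young burn replicate 2 gave folds of 2.84 in young (adjusted p = 0.11) and 2.62 in adult muscle (adjusted p = 0.084). When adult sham replicate 2, which held 21.5 CPM, was left out, the adult log2 fold change was 2.05 (adjusted p = 0.51, edgeR). C4b was called in young muscle when young burn replicate 1 was left out (adjusted p = 0.047), and in no other such fit.

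When burn was tested over both ages in a model with age and burn, C4b rose 2.66-fold (log2 1.41 ± 0.28, adjusted p = 0.036) with 12 libraries and 2.703-fold (adjusted p = 0.013, edgeR) with 11. C1qb rose 1.69-fold in the same fit of 12 libraries (adjusted p = 0.043), whereas C1qa and C1qc had adjusted p-values of 0.060 and 0.066. Without young burn replicate 2 all 3 C1q genes were called, C1qa at 1.69-fold, C1qb at 1.73-fold and C1qc at 1.62-fold (adjusted p = 0.025, 0.018 and 0.037). Thus 2 of 8 members were called with 12 libraries and 4 with 11, all higher, where 0.5% and 1.46% of all genes were called higher. The median log2 fold change over the 8 members was 0.55 with 12 libraries and 0.57 with 11, against 0.00 over all genes tested in either fit. Of the 12 fits that each left out 1 library, C4b was called in 4, without young sham replicate 1, young burn replicate 1, young burn replicate 2 or adult sham replicate 2, and was lost in the other 8. C1qb was called in 3 of them, those without young burn replicate 1, young burn replicate 2 or adult sham replicate 2.

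The interaction of C4b was 0.07 ± 0.57 with 12 libraries, 0.12 ± 0.56 with 11 and -0.60 without adult sham replicate 2, so that a difference between the ages was not detectable at this spread. Of the 75-base stretches in C4b transcripts, 22.7% also occur in C4a, which had 14 counts over the 12 libraries. C2, whose product C1s also cuts, had 85 counts in total and was not tested. Its mean level was 1.30 ± 0.37 CPM in young sham, 1.57 ± 0.29 in young burn, 1.81 ± 0.63 in adult sham and 1.09 ± 0.76 in adult burn (SD, n = 3 each). These ranges overlapped between burn and sham at both ages, and 46.9% of the exon bases of C2 lie in other annotated genes.

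C3 encodes the component on which all complement pathways meet. It lies on chromosome 17 at 57203970 to 57228136 on the minus strand. C3 RNA was about 3 times higher in adult than in young muscle, with or without burn. It measured 40.4, 37.5 and 23.2 CPM in young sham and 111, 98.1 and 98.8 CPM in adult sham. After burn it was 31.5, 40.0 and 57.8 CPM in young and 158, 154 and 114 CPM in adult muscle. Every young library lay below every adult library. The log2 difference of young sham against adult sham was -1.60 ± 0.23 (adjusted p = 0.0039), and that of young burn against adult burn was -1.72 ± 0.23 (adjusted p = 0.0010, edgeR, 12 libraries). Without young burn replicate 2 these were -1.61 ± 0.22 (adjusted p = 0.00056) and -1.67 ± 0.24 (adjusted p = 0.00046). C3 was the only member called between the sham groups, 1 of 8, where 1.85% of all genes were called lower in young sham with 12 libraries and 6.49% with 11. Both calls of C3 held in all 20 alternative fits.

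The response of C3 to burn was smaller than its age difference. The adult burn libraries all lay above the adult sham libraries, with a log2 fold change of 0.47 ± 0.22 (adjusted p = 0.72), and the young groups overlapped, with 0.35 ± 0.23 (adjusted p = 0.41, edgeR, 12 libraries) and 0.41 ± 0.25 with 11 (adjusted p = 0.44). Over both ages the fold was 1.33 with 12 libraries (adjusted p = 0.18) and 1.36 with 11 (adjusted p = 0.14), so C3 was not called for burn. The interaction was -0.12 ± 0.32 with 12 libraries and -0.06 ± 0.32 with 11. The count of C3 per count of C4b was 1.84 to 1.85 in young burn and 3.19 to 6.33 in young sham. It was 3.95 to 4.94 in adult burn and 4.56 to 15.5 in adult sham. The young burn ratios lay below all others. Adipocyte markers, which summed to 6.58 to 29.97 CPM in young sham and 4.08 to 92.6 CPM in adult sham, overlapped between the ages.

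Serping1 encodes the C1 inhibitor, the plasma protein that inactivates C1r and C1s, and lies on chromosome 2 at 84765387 to 84775444 on the minus strand. It measured 214, 148 and 133 CPM in young sham and 201, 241 and 277 CPM in young burn. In adults it was 182, 157 and 171 CPM in sham and 213, 213 and 185 CPM after burn. The adult groups did not overlap and the young groups did. The log2 fold changes were 0.54 ± 0.17 in young (adjusted p = 0.13) and 0.26 ± 0.17 in adult muscle (adjusted p = 0.78), and the burn term over both ages was 0.40 ± 0.12 (adjusted p = 0.13, edgeR, 12 libraries). With 11 libraries they were 0.55 ± 0.18 in young muscle (adjusted p = 0.15) and 0.39 ± 0.12 over both ages (adjusted p = 0.12). Serping1 was called in none of the comparisons with 12 or 11 libraries.

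**Figure D3:**
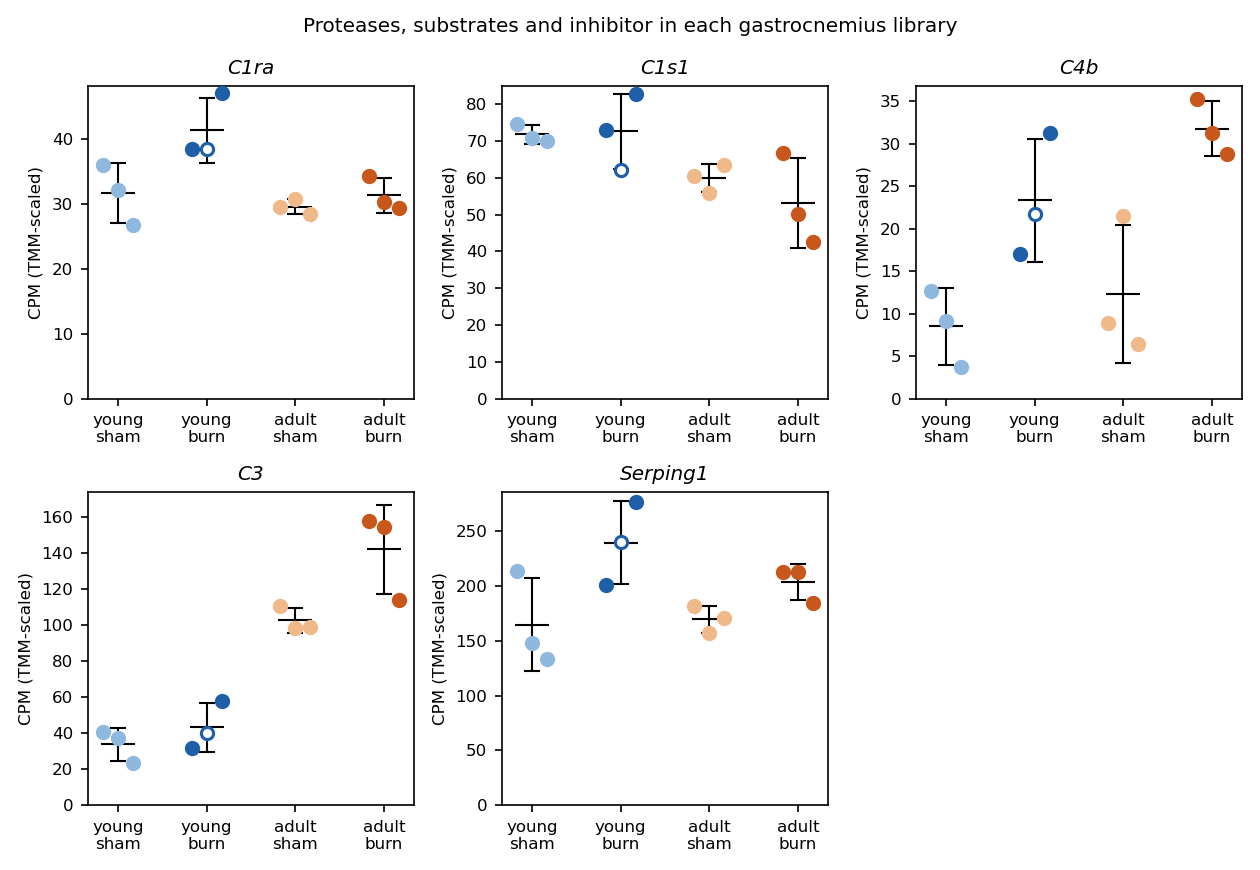
CPM (TMM-scaled) of C1ra, C1s1, C4b, C3 and Serping1 on the vertical axes for the 3 libraries of each group, with bars for the mean ± SD and an open point for young burn replicate 2. C3 separates the ages, C4b separates burn from sham within each age, and C1s1 overlaps between burn and sham at both ages.

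Cfb encodes factor B, the protease of the alternative pathway, and lies on chromosome 17 at 34856374 to 34862518 on the minus strand. It had 2 counts in all, 1 each in young burn replicates 1 and 2. The other 3 groups had 0 counts, which allows up to 0.228 CPM in young sham, 0.215 CPM in adult sham and 0.178 CPM in adult burn, for counting error only. No fold is given. Of the exon bases of Cfb, 79.5% lie in the overlapping annotated gene Gm20547, which had 0 counts in all libraries, and the counting method assigns a read that overlaps 2 genes to neither. The level of Cfb in this muscle is therefore not known from these counts.

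Between genes, levels can be compared only per length of exon. In adult sham muscle Serping1 was highest at 73.0 ± 5.3 CPM per kilobase, followed by C1qa at 44.1 ± 4.1 and C1qb at 29.3 ± 5.1 (SD, n = 3 each). C1qc at 21.9 ± 2.6, C3 at 19.9 ± 1.4 and C1s1 at 19.2 ± 1.2 CPM per kilobase came next, and C3 differed from each of the other two by less than the larger SD of the pair. C1ra followed at 9.93 ± 0.40 and C4b at 2.15 ± 1.43 CPM per kilobase. Other genes share 42.4% of the 75-base stretches of C1ra, 24.8% of C1s1 and 22.7% of C4b, so the ranks of these 3 genes are uncertain. In young burn Serping1 at 103 ± 16 and C1qa at 93.0 ± 26.4 CPM per kilobase overlapped, and C3, at 8.38 ± 2.61, stood below C1ra at 13.9 ± 1.7 (8.69 ± 3.62 and 14.4 ± 2.1 without young burn replicate 2).

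**Figure D4:**
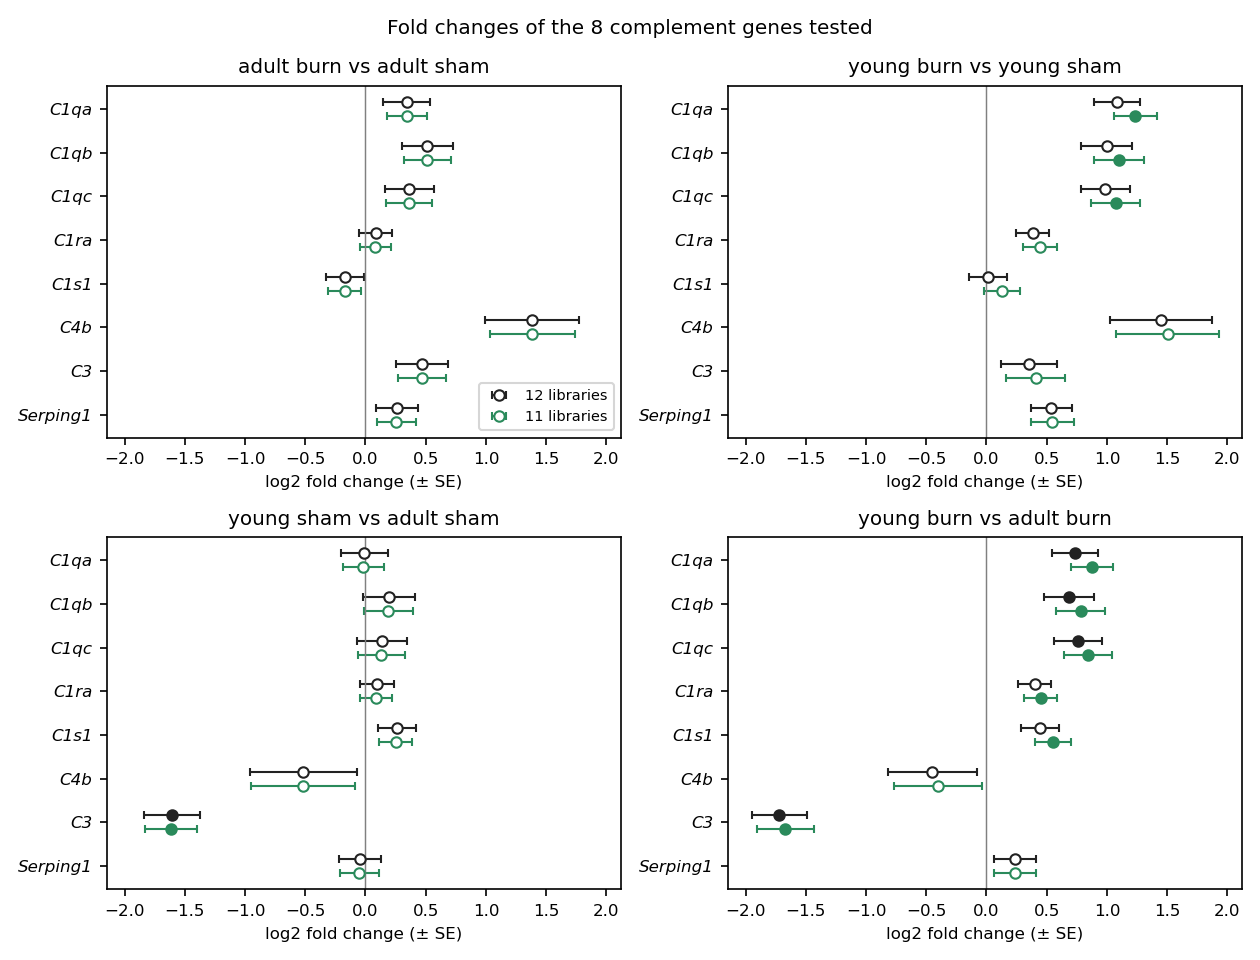
Log2 fold changes (horizontal, bars are SE) of the 8 members tested in the 4 comparisons of groups, with all 12 libraries in black and without young burn replicate 2 in green. Filled points passed an adjusted p of 0.05. C3 is filled in both comparisons of age, and the C1q genes are filled in young burn against young sham only with 11 libraries.

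Read over the whole set, 5 of the 8 members had burn values that all lay above the sham values in adult muscle (C1qb, C1qc, C3, C4b and Serping1) and 5 in young muscle (C1qa, C1qb, C1qc, C1ra and C4b). Of all genes tested, 10.3% did so in adult and 10.5% in young muscle. The median log2 fold change of the 8 members after burn was 0.76 in young (0.81 with 11 libraries) and 0.35 in adult muscle, against 0.01 and 0.00 over all genes. Over the mean profile of C1ra, C1s1, C3, C4b and Serping1, the most similar of the other genes were Twnk, Trf, Wdr34, Lrp1 and Gbe1. Their root mean square differences were 0.165 to 0.181, against an SD of the profile of 0.376. This mean joins unlike profiles, so it need not describe any single member. The log2 difference of young sham against adult sham, for example, was -1.60 for C3 and 0.26 for C1s1 (12 libraries).

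A further 46 complement genes were examined in 7 groups by role. Of these, 6 had no count in any library (C1rb, Mbl1, Mbl2, Fcnb, C8a and Cd55b), 19 had too few reads to test and 21 were tested. No gene among the 21 was called in adult burn against adult sham or in young burn against young sham by edgeR, with 12 or 11 libraries. At an unadjusted p under 0.05 there were 3 in adult and 8 in young muscle with 12 libraries, where 6.87% and 20.3% of all genes passed. With 11 there were 3 and 7, where 13.7% and 16% of all genes passed. DESeq2 called 0 at either age in both sets of libraries. Over both ages 1 of the 21 was called in each fit, and it fell, where 0.218% of all genes were called lower with 12 libraries and 0.688% with 11.

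C8g, the gamma chain of the C8 component, fell by 1.30 ± 0.24 on the log2 scale with 12 libraries (adjusted p = 0.031) and by 1.17 ± 0.25 with 11 (adjusted p = 0.026, edgeR), and was 1 of 2 terminal pathway genes tested. It measured 3.17, 2.84 and 2.93 CPM in young sham and 1.61, 0.730 and 1.23 CPM in young burn. The adult libraries held 2.48, 2.72 and 2.33 CPM in sham and 1.01, 0.723 and 1.30 CPM after burn. These low values did not overlap at either age. C8g had 110 counts over the 12 libraries, while C8a had none and C8b had 2.

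**Figure D5:**
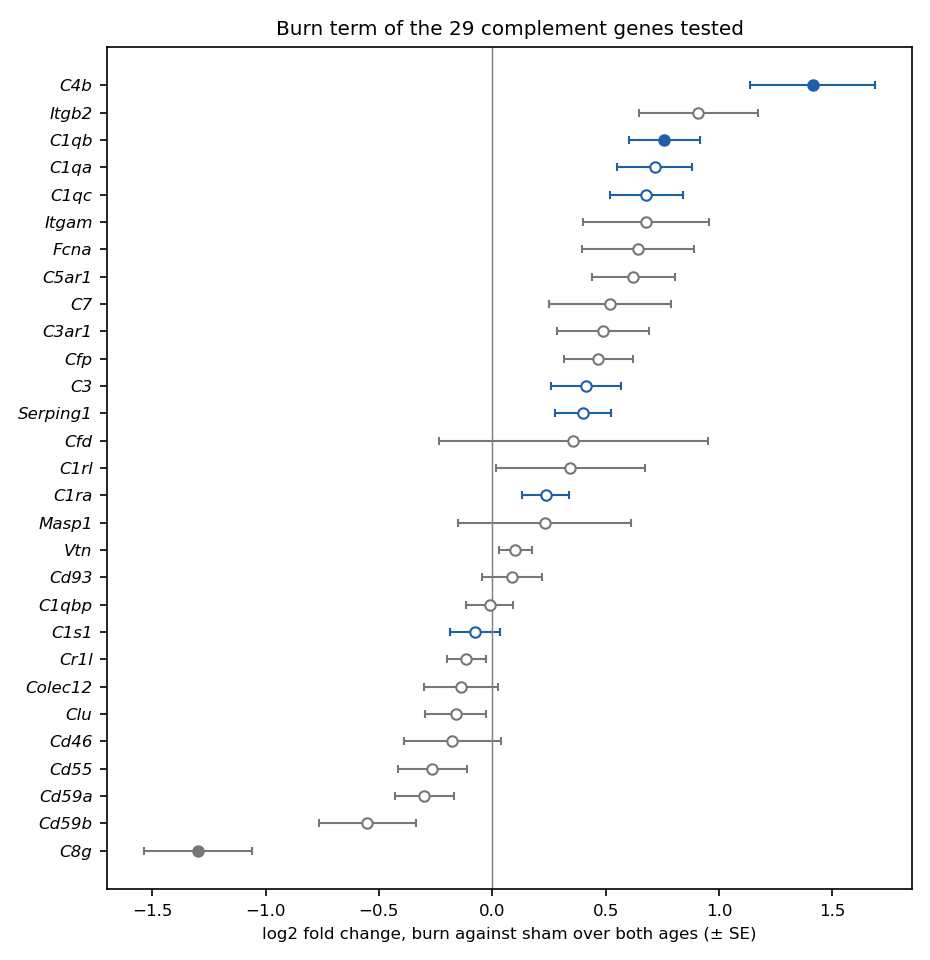
Log2 fold change (horizontal, bars are SE) of burn against sham over both ages for the 8 members (blue) and the 21 other complement genes tested (grey), with all 12 libraries. Filled points passed an adjusted p of 0.05, namely C4b and C1qb above 0 and C8g below.

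Between the ages, 1 of the 21 was called in young sham against adult sham with 12 libraries and 2 with 11, where 3.76% and 11.8% of all genes were called. In young burn against adult burn 2 were called with 12 libraries and 6 with 11, where 10.8% and 20.7% of all genes were called. Cd59a, 1 of 5 membrane regulators tested, blocks the terminal pathway on the cell surface. It was 1.73-fold higher in young sham than in adult sham (adjusted p = 0.035, edgeR, 12 libraries) and 1.72-fold with 11 (adjusted p = 0.0015). Between the burn groups Cd59a was called only with 11 libraries (1.72-fold, adjusted p = 0.0017, against 1.48-fold and 0.067 with 12). Cr1l, the rodent C3 regulator also called Crry, was likewise called only with 11 (1.29-fold, adjusted p = 0.045, against 1.22-fold and 0.15 with 12). Cd93, an endothelial surface receptor and 1 of 6 receptors tested, was 2.03-fold higher in young burn than in adult burn (adjusted p = 0.0034). With 11 libraries it was 2.21-fold higher (adjusted p = 0.00032), and 1.40-fold higher in young sham than in adult sham (adjusted p = 0.040).

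Of the 3 lectin pathway genes tested, Fcna, which encodes ficolin A, was 2.26-fold higher in young burn than in adult burn (adjusted p = 0.033, edgeR, 12 libraries) and 2.29-fold with 11 (adjusted p = 0.026). It measured 6.09, 9.86 and 14.7 CPM against 6.04, 3.98 and 3.34 CPM, so that the closest libraries differed by less than 0.1 CPM. Masp1, the lectin pathway protease, was called only without young burn replicate 2, at 3.19-fold (adjusted p = 0.013, against 2.53-fold and 0.080 with 12 libraries). C7 of the terminal pathway went the other way, and fell by 1.22 ± 0.39 on the log2 scale in young burn against adult burn (adjusted p = 0.038, edgeR, 11 libraries), while with 12 the difference was -0.92 ± 0.37 (adjusted p = 0.12). Endothelial markers were also higher in young than in adult burned muscle, at 473 to 662 against 384 to 417 CPM summed over 8 genes, and their part in the Cd93 difference was not tested.

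The anaphylatoxin receptors C3ar1 and C5ar1 and the integrin chains Itgam and Itgb2, all carried by leukocytes, had positive burn terms of 0.49 to 0.91 on the log2 scale with 12 libraries and 0.46 to 0.98 with 11, and none was called. They were picked out after their values were seen, and 68.7% of the exon bases of Itgam lie in another annotated gene. The remaining receptors tested, Cd93 and C1qbp, had burn terms of 0.09 and -0.01 with 12 libraries. The membrane regulators tested all had negative burn terms, from -0.55 for Cd59b to -0.11 for Cr1l, and none was called. Neutrophil markers were low, summing to at most 4.76 CPM in sham and to 5.96 to 27.0 CPM in burned muscle (at most 13.4 CPM without young burn replicate 2), and 2 of their 8 genes, Ly6g and Ltf, had no count. Cfd, which encodes the alternative pathway protease factor D and was likewise picked out afterwards, varied from 9.74 to 225 CPM within adult sham. The adult sham library with 225 CPM of Cfd also had the highest adipocyte marker sum of all libraries, 92.6 CPM, and the one with 9.74 CPM had the lowest, 4.08 CPM. These are the extreme libraries of 1 group, and the relation of Cfd to adipocyte markers was not tested.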

How the data were processed

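Poly-A RNA of 12 gastrocnemius samples, 3 per group by their labels, was read in pairs of 75 bases. The authors' RNA quality report gives no integrity number for any of them. Its ribosomal RNA ratios vary, with the highest in adult sham and the lowest in young sham samples, and their part in the results was not tested. The deposited values are raw counts per gene, which the authors made with STAR (2.7.5c in the submitters' processing notes) and its GeneCounts option on GRCm38 with Gencode M25, without normalization. The sources used here do not give the strand counted. Positions and overlaps were taken from Gencode M21 and promoters from RefSeq. The miRNA counts were not used.

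In R 4.3.3, edgeR 4.0.16 (TMM, filterByExpr at its defaults of 10 and 15 counts) tested 12408 genes in 12 libraries and 12651 without young burn replicate 2. Group means were fitted by quasi-likelihood, and p-values were adjusted by the Benjamini-Hochberg method over all genes. Calls required an adjusted p below 0.05, and the SE is the log2 fold change divided by the root of F. DESeq2 1.42.0 was an alternative. Limits for 0 counts are 3 counts over a group and cover counting error only. The edgeR fit of group means was checked on simulated data, with changes larger than those of the members in the main fits. Recovery of smaller changes was not checked.

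Named were all 9 members, other complement genes called in any comparison, near copies, genes at 0, and the 5 most similar profiles. Members and lists were chosen with earlier results of these data known. Some complement genes are not reported here.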

Additional observations from a re-analysis of the deposited data

How the results depend on the processing

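Each result was recomputed without each library, with RLE or library size scaling, without a filter, with DESeq2, with the compared groups alone, with a replicate block and with near copies summed, which held few counts and return no shared reads. Leaving out 1 library gave 0 members called in each fit of adult burn against adult sham (0.00788% to 0.909% of all genes) and of the interaction (0% to 0.0949%). It gave 1 in each between the sham groups (0.765% to 11.8%) and 0 to 4 in young burn against young sham (0.00792% to 5.52%). Between the burn groups 1 to 6 were called (3.08% to 20.7%), and 0 to 4 for burn over both ages (0.0315% to 2.23%). Without a filter, 1 member was called in adults, 5 in young muscle and 6 over both ages, beside 0.999%, 3.84% and 4.14% of all genes. Library size scaling gave 5 in young muscle and 1 over both ages, beside 4.96% and 0.363%. It moved the median of all genes by 0.24 in young burn against young sham, and relative to that median C1qa was at 1.06, C1qb at 0.98 and C1qc at 0.97. DESeq2 gave 4 in young muscle and 4 over both ages (4.53% and 2.83% of all genes), and 3 and 4 with 11 libraries (2.12% and 3.29%). The burn groups alone gave 1 between them (2.58%). The replicate block gave 1 over both ages (0.677%) and changed no other count by over 1.5 times. Replicate numbers were not treated as pairs of mice in the main fits. Of 18 same-number correlations of deviations, 3 exceeded 0.1 (range -0.20 to 0.15). With 3 libraries per group these values cannot show whether a batch was shared. The causes were not tested.

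Of 944 alternative values of single genes, 847 kept their direction and side of the threshold, 41 passed it, 38 no longer did and 18 changed sign, none of these called. Over the fits that left out 1 library, the log2 fold change of C1s1 in young burn against young sham ran from -0.088 to 0.13. Between the sham groups C1qa ran from -0.095 to 0.068, C1qc from -0.016 to 0.27, C1ra from -0.0029 to 0.20, C4b from -0.90 to 0.15 and Serping1 from -0.27 to 0.087. The interaction of C3 ran from -0.39 to 0.063 and that of C4b from -0.60 to 0.45. Library size scaling turned C1ra between the sham groups to -0.038, the C3 interaction to 0.11 and the C1s1 burn term to 0.036.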
